A study of Mus musculus with 4 samples.

Results

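The genes described here encode the receptors through which a mouse macrophage binds IgG: Fcgr1, Fcgr3 and Fcgr4, which activate the cell, Fcgr2b, which inhibits it, Fcer1g, the signalling chain of the activating receptors, and Fcgrt, the chain of the neonatal Fc receptor. They were chosen by name, as the known receptors for IgG and their shared chain, and all 6 were among the 54532 genes of the count table. Their transcripts were counted by RNA-seq in bone marrow-derived macrophages, which are primary macrophages grown out of mouse bone marrow. The marrow cells had 7 days in medium with 10% fetal bovine serum and 30% conditioned medium of L929, a fibroblast line that secretes macrophage colony-stimulating factor. They were then transfected for 24 h, either with a negative-control mimic (2 libraries, here called controls) or with a mimic of miR-204-3p (2 libraries); a mimic is a synthetic RNA duplex that acts like a microRNA. The comparison asks which transcripts differ between the 2 mimics. Strain, sex and age of the mice are not given in the sources used here. Whether the paired libraries of a group are separate mice or dishes is not stated either, so the p-values refer to the spread between these libraries, which may be purely technical. An untransfected group was not analysed here, so both groups share the transfection, and the level of miR-204-3p in the cells was not examined.

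Receptors for IgG link antibody to phagocytes. In mice, FcγRI, FcγRIII and FcγRIV, the products of Fcgr1, Fcgr3 and Fcgr4, pair with the common γ chain, the product of Fcer1g, whose immunoreceptor tyrosine-based activation motif (ITAM) is phosphorylated by Src-family kinases and then recruits the kinase Syk. FcγRIIB, from Fcgr2b, carries an inhibitory motif (ITIM) instead and recruits the lipid phosphatase SHIP-1, so the balance between the activating receptors and FcγRIIB sets the threshold for uptake of opsonised particles and for cytokine release. FcRn, from Fcgrt and β2-microglobulin, works inside the cell, where it returns IgG and albumin from acidic endosomes to the surface.

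The sequences that bear on the comparison are the microRNA itself, the stretches of members that match part of its seed, and the region before the start of the member that rose and of one that fell. The mature miR-204-3p of RefSeq (GRCm38.p6, chr19:22750649-22750669, plus strand) is shown with its seed, bases 2 to 8, in capitals.
miR-204-3p: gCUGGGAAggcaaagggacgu
Perfect matches of the seed (TTCCCAG, 7mer-m8), of the seed plus an A (TTCCCAGA, 8mer) or of its bases 2 to 7 plus an A (TCCCAGA, 7mer-A1) were absent from the longest annotated 3′ UTR of all 6 members. Across 11276 protein-coding genes, 22.5% of such UTRs held the 7mer-m8, 6.23% the 8mer and 16.8% the 7mer-A1. These shares were not matched for length, and a short UTR has less room for a match. The UTR searched was 256 bases long for Fcgrt, 342 for Fcer1g, 446 for Fcgr4 and 493 for Fcgr3. For Fcgr1 and Fcgr2b it was 1367 and 2397 bases. The shorter 6mer TCCCAG, which 47.9% of UTRs held, occurred once in Fcgr1 (chr3:96283261-96283286, minus strand) and once in Fcgr2b (chr1:170960196-170960221, minus strand). Both are shown in the sense of the transcript, with the 6mer in capitals.
Fcgr1 3′ UTR: gtgctagaggTCCCAGtctgcagagt
Fcgr2b 3′ UTR: tccctcaaacTCCCAGtcctgaagcc
One of these genes was higher and the other lower with the mimic, and a sequence match alone does not show a site in use.

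The region before a gene's start was searched for the letters of elements bound by interferon-activated and myeloid factors: TTCNNNGAA, the gamma-activated site (GAS); GAAA, any 2 bases and GAAA again, a core of the interferon-stimulated response element (ISRE); and GAGGAA, a core bound by ETS factors such as PU.1. Windows ran from 250 bases before to 50 after the RefSeq start, and both strands were read. Of 32851 such windows, 8.30% held the GAS letters, 3.44% the ISRE core and 28.3% the ETS core. Among the members, the GAS letters occurred in Fcgr1 alone, the ISRE core in Fcgr4 alone and the ETS core in Fcgr1, Fcgr3 and Fcgr4; the windows of Fcgr2b, Fcer1g and Fcgrt held none of them. Fcgr1 and Fcgr4 are shown because both are known to respond to interferon and moved in opposite directions here. The 250 bases before each start are given on the strand of the gene, from RefSeq (GRCm38.p6), at chr3:96293970-96294219 (minus strand) for Fcgr1 and chr1:171018676-171018925 (plus strand) for Fcgr4. Capitals mark, in Fcgr1, the GAS letters that begin 109 bases before the start and the ETS core that begins 55 bases before it, and, in Fcgr4, the ISRE core at 73 bases and the ETS core at 22 bases before the start. The ETS cores read TTCCTC on this strand, and the marked matches do not overlap each other.
Fcgr1: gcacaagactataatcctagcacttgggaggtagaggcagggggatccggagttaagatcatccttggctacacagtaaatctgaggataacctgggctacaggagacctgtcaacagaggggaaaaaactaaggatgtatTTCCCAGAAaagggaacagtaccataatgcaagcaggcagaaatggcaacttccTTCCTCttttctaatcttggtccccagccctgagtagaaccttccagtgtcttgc
Fcgr4: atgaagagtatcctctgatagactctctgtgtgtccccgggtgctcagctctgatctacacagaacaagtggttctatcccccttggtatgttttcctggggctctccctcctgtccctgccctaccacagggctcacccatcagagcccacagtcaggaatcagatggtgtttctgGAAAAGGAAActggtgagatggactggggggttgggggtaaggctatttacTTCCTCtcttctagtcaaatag
A match to these letters describes the sequence and not binding. Fcgr3 has 2 RefSeq starts, and the same ETS core begins 6 bases before one and 15 bases before the other. Both windows of Fcgr3 lie inside the annotated span of the gene, and not before its outermost start.

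The libraries held 15899235 to 16837826 counts each, and 13186 genes passed the low-count filter and were tested. The 2 groups stood far apart: Pearson r of log2 values across genes was 0.987 and 0.989 within groups and 0.871 to 0.885 between them. Of the genes tested, 60.8% passed the test, 31.1% as higher and 29.7% as lower with the miR-204-3p mimic, and the groups did not overlap for 80.7%. Levels are counts per 1000000 counts (CPM), scaled between libraries by TMM factors (trimmed mean of M-values), which were 0.878 and 0.886 in controls against 1.14 and 1.13 with the miR-204-3p mimic. Scaled by library size alone, all genes tested had a median log2 fold change of 0.40 in place of 0.04, so each change described is relative to the TMM scale. Adjusted p-values are from edgeR's quasi-likelihood test with Benjamini-Hochberg adjustment over all tested genes, at a threshold of 0.05, and log2 fold changes, ± their standard error (SE), are miR-204-3p mimic over control mimic.

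With the miR-204-3p mimic, the high-affinity receptor gene Fcgr1 rose and the other 5 genes fell. Fcgr3 fell furthest, by more than 6-fold, followed by Fcgr2b, Fcgr4 and Fcgrt, which fell by about the same factor, and Fcer1g, which fell least. All 6 passed the low-count filter and the test, and in none did the groups overlap. Among all genes tested 60.8% passed, 31.1% rose, 29.7% fell and 80.7% had groups that did not overlap, so that passing did not set the members apart. Their median log2 fold change was -1.08, against 0.04 over all genes tested. In bulk RNA, fewer cells of a type and less RNA per cell cannot be told apart.

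**Figure D1:**
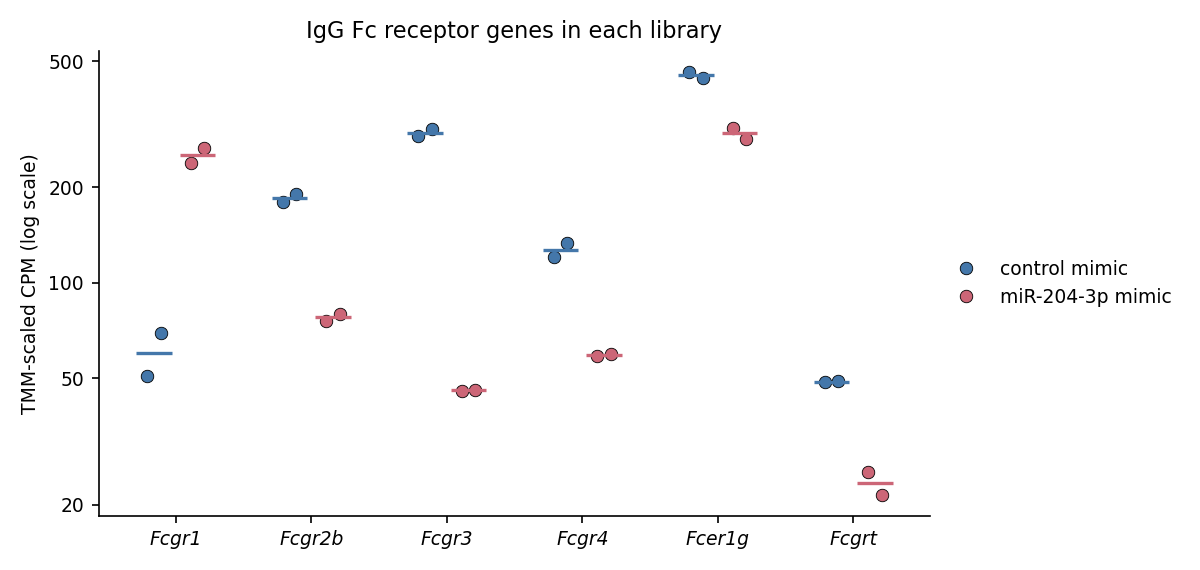
TMM-scaled CPM (log axis) of the 6 IgG Fc receptor genes in each library, with control mimic in blue and miR-204-3p mimic in red; each point is 1 library and each bar the mean of the 2. Fcgr1 is the gene whose miR-204-3p mimic libraries, at 239 and 266 CPM, lie above its control libraries, at 51.0 and 69.5 CPM.

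Fcgr1 (ENSMUSG00000015947, mm10 chromosome 3, 96282909 to 96293969, minus strand) encodes FcγRI, or CD64, the high-affinity receptor, which binds monomeric IgG2a. It had 736 and 979 counts in controls against 4603 and 4875 with the miR-204-3p mimic, or 51.0 and 69.5 against 239 and 266 CPM. The 2 control libraries differed from each other more than those of any other member, relative to their level, and both lay far below the miR-204-3p mimic libraries. The mean went from 60.2 ± 13.1 to 253 ± 18.7 CPM (SD, n = 2 each), a log2 fold change of 2.07 ± 0.15 (4.19-fold higher, adjusted p = 5.81e-08). Of all genes tested, 5.84% had a larger log2 fold change. Leaving out any 1 library gave 1.85 to 2.30.

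Fcgr3 (ENSMUSG00000059498, chromosome 1, 171051174 to 171064935, minus strand) encodes FcγRIII, a low-affinity activating receptor for immune complexes. It had 4182 and 4300 counts with the control mimic and 881 and 845 with the miR-204-3p mimic, or 290 and 305 against 45.8 and 46.1 CPM. The libraries of each group lay close together. The mean fell from 298 ± 11.0 to 45.9 ± 0.192 CPM (SD, n = 2 each), a log2 fold change of -2.70 ± 0.13 (6.48-fold lower, adjusted p = 6.32e-10), and 3.02% of genes tested had a smaller one.

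Fcgr4 (ENSMUSG00000059089, chromosome 1, 171018920 to 171029761, plus strand) encodes FcγRIV, an activating receptor for IgG2a and IgG2b. It had 1740 and 1879 counts with the control mimic and 1132 and 1096 with the miR-204-3p mimic, or 121 and 133 against 58.8 and 59.8 CPM. The mean fell from 127 ± 9.11 to 59.3 ± 0.642 CPM, a log2 fold change of -1.10 ± 0.12 (2.14-fold lower, adjusted p = 3.52e-06). Fcgr1 and Fcgr4, both receptors for IgG2a that need the γ chain, thus stood on opposite sides of 0.

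Fcgr2b (ENSMUSG00000026656, chromosome 1, 170958617 to 170976547, minus strand) is the gene of the inhibitory receptor. It had 2591 and 2678 counts with the control mimic and 1464 and 1459 with the miR-204-3p mimic, or 179 and 190 against 76.1 and 79.5 CPM. The mean fell from 185 ± 7.54 to 77.8 ± 2.43 CPM, a log2 fold change of -1.25 ± 0.12 (2.37-fold lower, adjusted p = 9.77e-07). Fcgr2b and Fcgr3 share transcript sequence: 9.58% of the 50-base stretches of Fcgr3 occur in Fcgr2b, and 2.92% of those of Fcgr2b occur in Fcgr3, so some reads could have been counted to either. Fcgr4 shares none at this length. Counted as 1 feature, Fcgr2b, Fcgr3 and Fcgr4 had 590 and 629 CPM in controls against 181 and 185 CPM with the miR-204-3p mimic, a log2 fold change of -1.74 ± 0.12 (3.33-fold lower, adjusted p = 3.52e-08).

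Fcer1g (ENSMUSG00000058715, chromosome 1, 171229572 to 171234365, minus strand) supplies the γ chain without which FcγRI, FcγRIII and FcγRIV do not signal. It had 6673 and 6242 counts with the control mimic and 5915 and 5217 with the miR-204-3p mimic, or 462 and 443 against 307 and 284 CPM. The mean fell from 453 ± 13.5 to 296 ± 16.3 CPM, a log2 fold change of -0.61 ± 0.12 (1.53-fold lower, adjusted p = 0.000612). This is the one member whose call depended on the scaling: the log2 fold change was -0.25 (adjusted p = 0.0843) with library size alone, and -0.11 (adjusted p = 0.457) with offsets for gene length. At 874 bases, Fcer1g has the shortest deposited gene length of the members.

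Fcgrt (ENSMUSG00000003420, chromosome 7, 45092990 to 45103851, minus strand) encodes the MHC class I-like chain of FcRn. It had 701 and 692 counts with the control mimic and 487 and 395 with the miR-204-3p mimic, or 48.6 and 49.1 against 25.3 and 21.5 CPM. The 2 control libraries were almost equal and both miR-204-3p mimic libraries lay below them. The mean fell from 48.8 ± 0.405 to 23.4 ± 2.67 CPM, a log2 fold change of -1.06 ± 0.15 (2.08-fold lower, adjusted p = 3.34e-05), and -0.70 with library size alone.

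**Figure D2:**
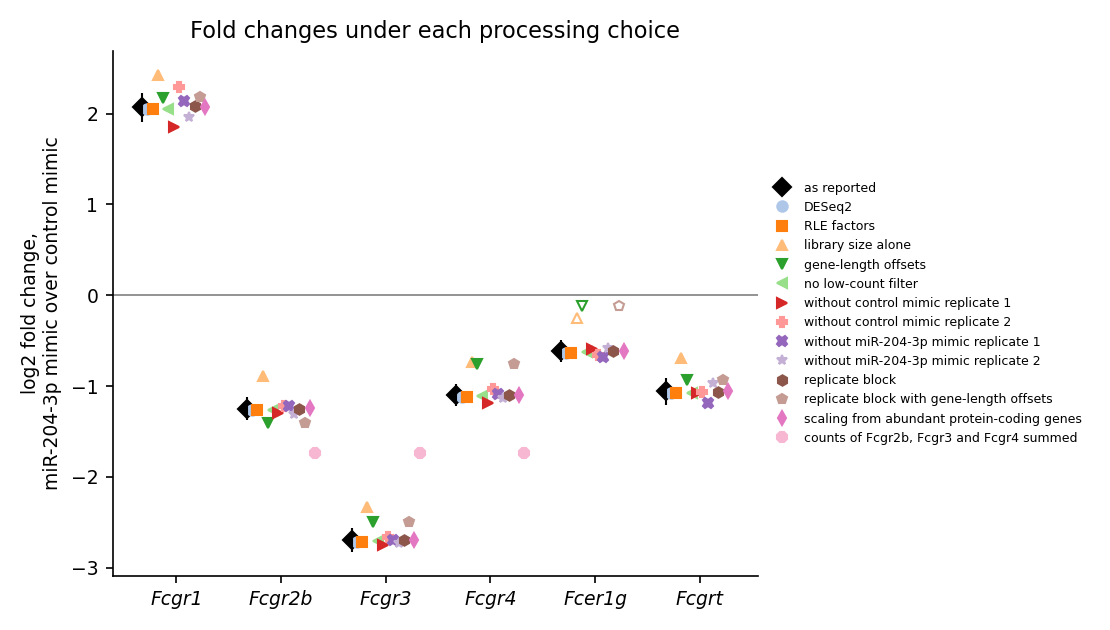
Log2 fold change (miR-204-3p mimic over control mimic) of each member as reported (black diamond, bar is 1 SE) and under each alternative processing choice; open symbols did not pass the test, and the octagon is 1 shared value for Fcgr2b, Fcgr3 and Fcgr4 counted together. Fcgr1 stays between 1.85 and 2.43 and Fcgr3, taken alone, between -2.75 and -2.33, while Fcer1g approaches 0 in the 3 settings shown as open symbols.

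Levels of different genes are compared per kilobase of deposited gene length. In control libraries Fcer1g was highest, at 518 ± 15.4 CPM per kb (SD, n = 2), followed by Fcgr3 at 171 ± 6.36 and Fcgr4 at 101 ± 7.25 CPM per kb. Fcgr2b was at 31.9 ± 1.30, Fcgr1 at 23.3 ± 5.06 and Fcgrt at 23.2 ± 0.193 CPM per kb, of which the last pair did not differ beyond their spread. With the miR-204-3p mimic the signalling chain Fcer1g was still highest, at 339 ± 18.7 CPM per kb, and the order of the receptors was different. Fcgr1 was now second, at 97.5 ± 7.24 CPM per kb, and Fcgr4 next, at 47.2 ± 0.511. Fcgr3 was at 26.5 ± 0.111, Fcgr2b at 13.4 ± 0.420 and Fcgrt at 11.1 ± 1.27 CPM per kb, and no neighbours in this order overlapped.

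The make-up of the Fcγ receptor transcripts was taken within each library, as the share of each gene in the summed length-scaled counts of Fcgr1, Fcgr2b, Fcgr3 and Fcgr4. A single scaling factor per library cannot alter these shares, but a trend on gene length that differs between libraries can. Fcgr3 was the main receptor transcript in the control libraries, with 53.2% and 51.5%. With the miR-204-3p mimic it was Fcgr1, with 51.7% and 53.9%. The share of Fcgr1 went from 7.07 ± 1.11% to 52.8 ± 1.55% (SD, n = 2 each) and that of Fcgr3 from 52.3 ± 1.25% to 14.3 ± 0.583%. Fcgr4 moved less, from 30.8 ± 0.333% to 25.6 ± 0.871%, and the inhibitory Fcgr2b held 9.75 ± 0.197% and 7.28 ± 0.0990%. For each of these shares the groups did not overlap, but with 2 libraries against 2 the two-sided exact permutation test cannot go below p = 0.333, which each share gave.

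**Figure D3:**
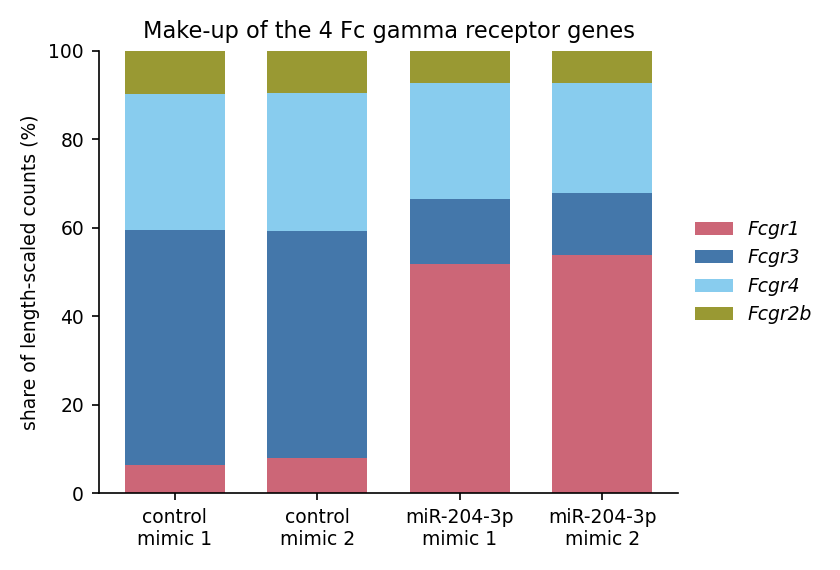
Share (%) of Fcgr1, Fcgr3, Fcgr4 and Fcgr2b in the summed length-scaled counts of the 4 genes, with 1 stacked bar per library. The Fcgr1 segment is 6.28% and 7.86% in controls against 51.7% and 53.9% with the miR-204-3p mimic.

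Each activating receptor was also set against the inhibitory one. The length-scaled ratio of Fcgr1 to Fcgr2b was 0.635 and 0.818 in controls against 7.03 and 7.47 with the miR-204-3p mimic. The ratio of Fcgr3 to Fcgr2b was 5.38 and 5.36 in controls against 2.01 and 1.93 with the miR-204-3p mimic. That of Fcgr4 to Fcgr2b stayed within a narrow range, at 3.10 and 3.23 against 3.56 and 3.46. The log2 ratio to Fcgr2b thus differed by 3.33 for Fcgr1, by -1.45 for Fcgr3 and by 0.15 for Fcgr4, each again at p = 0.333, the smallest the exact permutation test allows. The ratios themselves depend on the length used, while their log2 difference does not, as each gene has the same length in every library. Offsets from a trend on gene length differ between libraries and can shift it. With them the log2 fold change was 2.17 for Fcgr1, -1.40 for Fcgr2b, -2.50 for Fcgr3 and -0.75 for Fcgr4. Without them these were 2.07, -1.25, -2.70 and -1.10, so Fcgr4 and Fcgr2b stood further apart with the offsets. Without division by length, Fcgr3 to Fcgr2b was 1.61 against 0.590, Fcgr4 to Fcgr2b 0.687 against 0.762 and Fcgr1 to Fcgr2b 0.325 against 3.24 (means of 2 libraries), and with principal transcript length Fcgr1 to Fcgr2b was 0.445 against 4.44. Summed over the 4 genes, receptor transcript was 328 ± 19.97 CPM per kb in controls against 185 ± 8.28 with the miR-204-3p mimic. Fcer1g relative to the sum of its partners Fcgr1, Fcgr3 and Fcgr4 was 1.87 and 1.64 against 2.12 and 1.84, ranges that overlapped (exact permutation p = 0.667). This ratio changed direction with the length: its means were 1.95 and 2.46 with principal transcript length, without overlap (exact permutation p = 0.333), and 0.937 and 0.830 without division by length (exact permutation p = 0.667).

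Fcgr2b, Fcgr4, Fcgr3 and Fcer1g lie in this order within 276 kb of chromosome 1, with gaps of 42.4, 21.4 and 165 kb, whereas Fcgr1 and Fcgrt stand alone on chromosomes 3 and 7. Of 19 tested protein-coding neighbours within 250 kb of the chromosome 1 members, 12 fell and 3 rose, with a median log2 fold change of -0.69. Over all genes tested, 29.7% fell and 31.1% rose. Around Fcgr1, 4 of 7 neighbours rose and 2 fell, with a median of 0.71, and around Fcgrt 4 of 25 rose and 13 fell, with a median of -0.65. With library size alone, 8 fell and 4 rose on chromosome 1 (median -0.32), 1 fell and 4 rose around Fcgr1 (1.07), and 9 fell and 5 rose around Fcgrt (-0.29). Among the neighbours with the lowest p, Sf3b4, a splicing factor gene near Fcgr1, rose by a log2 fold change of 1.29 ± 0.13 (adjusted p = 7.44e-07) and B4galt3, a galactosyltransferase gene near Fcer1g, rose by 1.19 ± 0.14 (adjusted p = 5.28e-06). Near Fcgrt, the leukocyte tetraspanin gene Cd37 fell to -1.37 ± 0.13 (adjusted p = 4.24e-07).

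**Figure D4:**
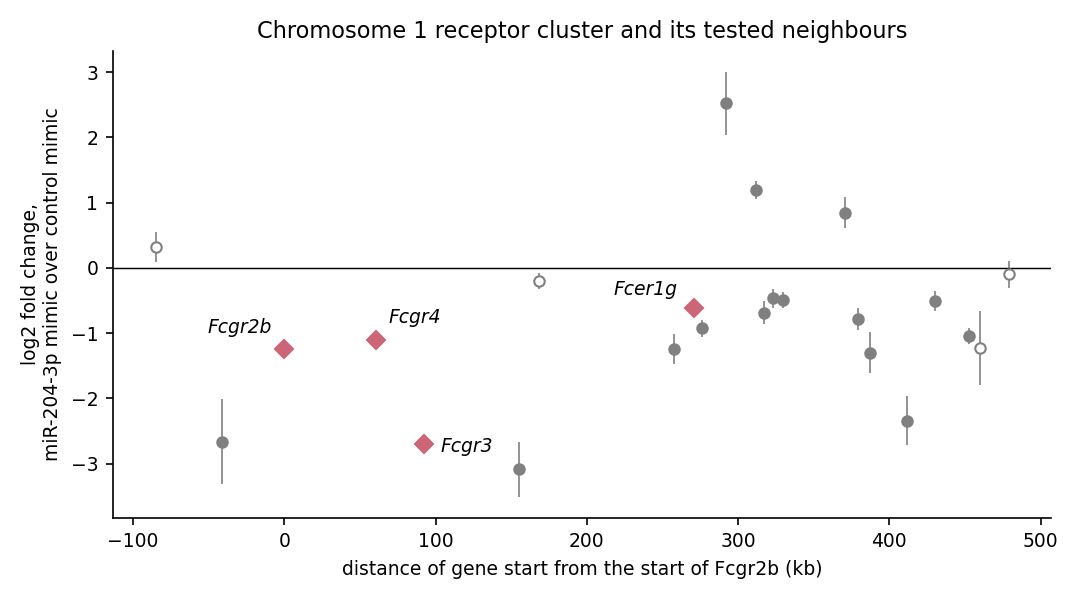
Log2 fold change (miR-204-3p mimic over control mimic, bars are 1 SE) of the 4 chromosome 1 members (red diamonds) and their 19 tested protein-coding neighbours (grey circles) against the distance of each gene's start from the start of Fcgr2b in kb; open circles did not pass the test. The 4 members lie below 0, as do 12 neighbours that passed, and 3 neighbours that passed lie above 0.

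Downstream of the receptors, 10 of 39 genes of ITAM and ITIM signalling rose, 20 fell and 9 missed the threshold. Their median log2 fold change was -0.36. The share called was 76.9%, against 60.8% of all genes tested (31.1% higher and 29.7% lower). With library size alone 14 rose and 13 fell, at a median of 0.00, so the balance of the list depended on the scaling. Of the phosphatases that can bind inhibitory motifs, some fell: Ptpn6, encoding SHP-1, from 385 ± 24.9 to 104 ± 12.3 CPM (-1.89 ± 0.14, adjusted p = 3.52e-08), and Inpp5d, encoding SHIP-1, from 273 ± 11.4 to 95.4 ± 5.02 CPM (-1.52 ± 0.13, adjusted p = 1.61e-07). Named after their values were seen, Ptpn11, encoding SHP-2, rose from 107 ± 5.48 to 155 ± 9.89 CPM (0.54 ± 0.13, adjusted p = 0.00191), and Inppl1, encoding SHIP-2, had 115 ± 0.122 and 107 ± 10.3 CPM (-0.11 ± 0.13, adjusted p = 0.486). The Tec-family kinase gene Tec fell from 66.7 ± 1.22 to 18.4 ± 2.54 CPM. The Src-family kinase gene Fyn rose from 45.8 ± 2.78 to 123 ± 0.971 CPM (1.43 ± 0.12, adjusted p = 2.68e-07), Cblb, a ubiquitin ligase of activated receptors, from 6.45 ± 0.185 to 20.05 ± 2.33 CPM, and Lcp2, encoding the adaptor SLP-76, from 122 ± 10.4 to 234 ± 19.5 CPM. Named after their values were seen, some other members of the Src family fell, among them Lyn from 317 ± 3.24 to 125 ± 5.20 CPM and Fgr from 37.5 ± 15.4 to 5.75 ± 0.107 CPM. Syk, the kinase that docks on the γ chain, had 166 ± 21.4 and 129 ± 9.31 CPM (-0.36 ± 0.13, adjusted p = 0.0295), and its call was lost with library size alone (0.00, adjusted p = 0.995), without control replicate 2 (-0.23, adjusted p = 0.266) and without miR-204-3p mimic replicate 2 (-0.31, adjusted p = 0.0806).

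Of the genes that form the phagocytic cup, the actin-rich pocket around an opsonised particle, 6 of 26 tested rose and 10 fell. The other 10 missed the threshold, and the median was -0.13. The share called was 61.5%, against 60.8% of all genes tested, so calls did not set this list apart. Marcks was listed at 0 in every library. With library size alone 12 rose and 7 fell, at a median of 0.24. The largest shifts by p were downward: Myo1f, a class I myosin gene, had 365 and 393 CPM in controls against 33.1 and 34.9 CPM (-3.48 ± 0.14, adjusted p = 1.05e-10), Gsn, encoding the actin-severing gelsolin, from 879 ± 17.4 to 90.0 ± 3.14 CPM (-3.29 ± 0.13, adjusted p = 1.11e-10), and Coro1a, encoding coronin 1A, from 906 ± 159 to 240 ± 25.7 CPM. Elmo1, which helps to activate Rac, rose from 66.9 ± 2.56 to 203.9 ± 37.0 CPM (1.61 ± 0.14, adjusted p = 3.52e-07), and the phospholipid enzyme genes Pip5k1a and Pld1 rose by log2 fold changes of 1.22 ± 0.13 and 1.79 ± 0.19.

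The γ chain also serves receptors other than those for IgG, and DAP12 (Tyrobp) is the other main ITAM adaptor of macrophages. Of 13 genes of such partners and of adaptor chains, with the B-cell receptor chains Cd79a and Cd79b among them, 7 were tested. Of these 1 rose and 5 fell, with a median of -1.62 (2 and 5, at a median of -1.26, with library size alone). The share called was 85.7%, against 60.8% of all genes tested. The median is the value of Cd79a, which fell as Cd79b did. The Cd79a call was lost with DESeq2 (-1.65, adjusted p = 0.0578) and with the replicate block and gene-length offsets (-1.36, adjusted p = 0.0501). It was also lost without control replicate 1 (-1.49) and without miR-204-3p mimic replicate 2 (-1.41). Ncr1, Fcer1a and Ms4a2 had no count in any library. Tyrobp fell from 956 ± 25.3 to 144 ± 12.5 CPM (-2.73 ± 0.13, adjusted p = 6.61e-10), and the DAP10 gene Hcst from 28.2 ± 4.36 to 10.7 ± 0.248 CPM. Among the γ chain's C-type lectin partners, Clec4e, encoding Mincle, rose from 177 ± 37.0 to 357 ± 13.3 CPM (1.01 ± 0.15, adjusted p = 3.77e-05), while Clec4n, encoding Dectin-2, fell from 63.1 ± 21.4 to 4.50 ± 0.0386 CPM (-3.81 ± 0.23, adjusted p = 7.54e-09). Named after its values were seen, Clec4d, the other tested lectin of the list, did not pass (-0.02, adjusted p = 0.925). It was called higher with library size alone (0.35, adjusted p = 0.0337). Opposite directions among partners of the γ chain were thus seen for Clec4e and Clec4n as well as for IgG receptors.

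Of 13 other Fc receptor genes only 3 were tested and 7 had no count in any library. Trim21, the cytosolic Fc receptor that binds antibody inside the cell, rose from 8.35 ± 0.840 to 17.0 ± 1.84 CPM (1.03 ± 0.21, adjusted p = 0.000624). The Fc receptor-like gene Fcrl1 fell from 45.5 ± 4.96 to 20.2 ± 1.21 CPM (-1.17 ± 0.16, adjusted p = 1.75e-05), and Fcrla, beside Fcgr2b, had 14 and 16 counts against 4 and 2; its call (adjusted p = 0.00278) was lost without miR-204-3p mimic replicate 2 (adjusted p = 0.0549).

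The partner of Fcgrt moved against it. B2m, encoding β2-microglobulin, rose from 980 ± 138 to 1546 ± 61.6 CPM (0.66 ± 0.13, adjusted p = 0.000573), while Fcgrt fell 2.08-fold. Of the 7 genes of the FcRn partner and recycling list, 2 rose, 2 fell and 3 did not pass, at a median of -0.10 (3 and 1, at a median of 0.27, with library size alone). The share called was 57.1%, against 60.8% of all genes tested. The Rab11 effector genes went apart: Rab11fip1 rose from 18.0 ± 3.36 to 124 ± 11.4 CPM (2.79 ± 0.16, adjusted p = 3.20e-09) and Rab11fip5 fell from 171 ± 4.16 to 64.4 ± 1.45 CPM (-1.41 ± 0.12, adjusted p = 2.83e-07). Rab11a, the small GTPase they bind, was 124 ± 10.3 and 85.9 ± 7.27 CPM (-0.53 ± 0.13, adjusted p = 0.00266), a call lost with library size alone (-0.17, adjusted p = 0.272).

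Interferon-γ is a classical inducer of Fcgr1, and interleukin-10 and transforming growth factor-β are known to shift Fcγ receptors too. Of 21 known regulators, 18 were tested, of which 4 rose, 11 fell and 3 missed the threshold, at a median of -0.67. The share called was 83.3%, against 60.8% of all genes tested (31.1% higher and 29.7% lower). With library size alone 6 rose and 9 fell, at a median of -0.31. The NF-κB subunit genes Nfkb1 and Rela rose by log2 fold changes of 1.22 ± 0.14 and 0.90 ± 0.12. Il10ra, the ligand-binding chain of the interleukin-10 receptor, fell from 130 ± 3.26 to 19.4 ± 1.11 CPM (-2.74 ± 0.14, adjusted p = 7.87e-10), Tgfbr2 fell to -2.53 ± 0.14, and Cebpa, a myeloid transcription factor gene, fell from 77.0 ± 0.302 to 11.7 ± 0.358 CPM (-2.71 ± 0.15, adjusted p = 2.55e-09). Named after their values were seen, the myeloid factors Irf8 and Spi1 (PU.1) fell to -2.24 ± 0.13 and -0.71 ± 0.13. The interferon genes Ifng and Ifnb1 had no count in any library. Of 20 interferon-stimulated genes 19 were tested, of which 17 rose, none fell and 2 missed the threshold, at a median of 4.45. The share called was 89.5%. Usp18, for example, a brake on interferon receptor signalling, went from 8.34 ± 0.747 to 196 ± 19.9 CPM. Whether Fcgr1 and these genes share a control was not tested.

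**Figure D5:**
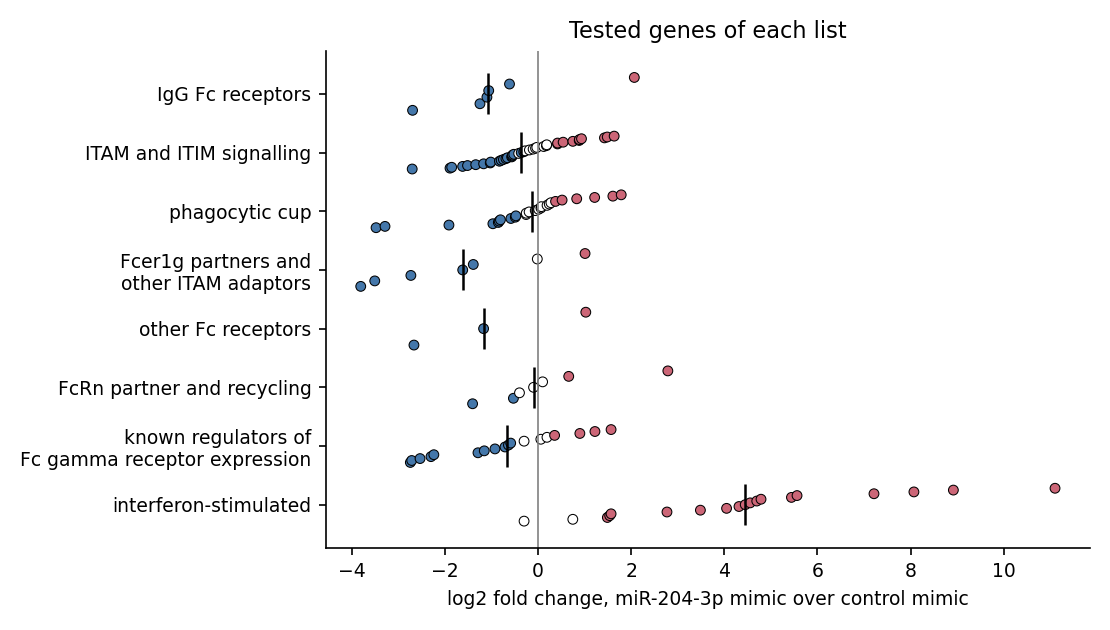
Log2 fold change (miR-204-3p mimic over control mimic) of the tested genes of each list, 1 point per gene, with genes that rose in red, genes that fell in blue, genes that did not pass the test open, and the list's median as a black bar. The IgG Fc receptors have 1 red point, Fcgr1 at 2.07, and 5 blue points, and the interferon-stimulated genes have 17 red points and none in blue.

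Other cell types express some of these receptors, and marker genes of several moved between the groups. All 8 tested of 10 macrophage markers fell, against 29.7% of all genes tested. The markers summed to 17121 and 18961 CPM in controls against 3189 and 3200 CPM with the miR-204-3p mimic. Most of this was Lyz2, at 13785 and 15291 CPM in controls against 2143 and 2111 CPM. Csf1r, the M-CSF receptor gene, was at 731 ± 57.5 and 49.9 ± 2.72 CPM. Lyz2, Cd14, Cd68 and Adgre1 were counted in every library, while C1qa, Mrc1, Mertk and Marco, markers of many tissue macrophages, stayed under 10 CPM in all 4. B cells carry Fcgr2b as their IgG receptor; their 8 markers summed to 228 and 251 CPM against 4.31 and 5.12 CPM, nearly all of it Ighm at 233 ± 18.1 and 2.77 ± 0.169 CPM, while the defining Ms4a1 had no count in any library. Neutrophils carry Fcgr3 and Fcgr4; their 9 markers summed to 174 and 241 CPM against 11.2 and 15.4 CPM, mostly Prtn3 and Csf3r, while Ly6g, Cxcr2 and Retnlg had no count. Natural killer cells carry Fcgr3, and 6 of their 7 markers had no count and the seventh, Eomes, stayed under 0.21 CPM. The 8 mast cell and basophil markers summed to at most 2.29 CPM, with Fcer1a, Ms4a2, Mcpt4 and Mcpt8 at 0, and the 8 dendritic cell markers to 495 and 571 against 357 and 402 CPM, mostly Bst2, with Itgax falling from 38.1 ± 6.48 to 2.20 ± 0.490 CPM. The part of these markers in the change of the members was not tested.

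For each member, the genes with the most similar pattern were sought among 9048 protein-coding genes whose average log2 CPM was 3 or more, by the Euclidean distance of log2 CPM centred on the mean of the 4 libraries. For Fcgr1 these were Slc4a2, an anion exchanger gene, at a distance of 0.0960 and Stau2, an RNA-binding protein gene, at 0.113. For Fcgr3 they were Gm10073, a gene model, at 0.0470 and Cebpa at 0.0641, for Fcgr2b Colgalt1 and Zfand1, for Fcgr4 Alkbh7 and Eif2d, for Fcer1g Kif15 and Alcam, and for Fcgrt Rpl19 and Ccnd1. With 4 libraries in 2 groups that stand far apart, the distance reflects mainly the size of the fold change: Slc4a2 had a log2 fold change of 1.97 ± 0.16 and Cebpa one of -2.71 ± 0.15, against 2.07 for Fcgr1 and -2.70 for Fcgr3.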

How the data were processed

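RNA-seq gene counts of 4 libraries of mouse bone marrow-derived macrophages, 2 per group, were analysed. The deposited table gives raw read counts for each gene, with gene length, symbol and coordinates, per the file headers. HISAT2 and mm10 are named in the submitters' processing notes; the counting program, its strand setting and its treatment of reads that match several genes are not given in the sources used here. Libraries were made with the NEBNext Ultra kit, per the labels' protocols. No column was unused. Coordinates of the members were the same in GENCODE vM21 (GRCm38), which gave their UTRs and transcripts; genes that overlap a member had at most 27 counts in all 4 libraries. Sequences are from RefSeq (GRCm38.p6) or, for the UTR sites, GENCODE vM21.

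Counts were tested in R 4.3.3 with edgeR 4.0.16 (filterByExpr by group, TMM factors, glmQLFit and glmQLFTest, two-sided, group only, Benjamini-Hochberg at 0.05 over all tested genes). The standard error of a log2 fold change was derived from the F statistic. Replicates differed by more than sampling noise (chi-square per degree of freedom 11.1 and 16.7), so none was counted as a duplicate. The procedure was tested on simulated data with known changes. Apart from a planted trend on gene length, these were given to a small part of the genes, in random directions. Scaling between libraries under changes as wide as those seen here was thus not tested. A count of 0 in a library allows up to 3 counts, 0.156 to 0.213 TMM-scaled CPM, for counting error only. Alternatives were DESeq2 1.42.0, RLE factors, library size alone, offsets from a trend on gene length, no low-count filter, leaving out each library, the replicate number as a block, and Fcgr2b, Fcgr3 and Fcgr4 summed; 2 more, principal transcript length and scaling from abundant protein-coding genes, were added after seeing the data. Named genes are the members, the genes of lowest p in each list (up to 3 per direction, average log2 CPM 3 or more), up to 3 neighbours per direction, and 2 genes of most alike pattern per member; not every gene so chosen is printed, and some are not reported here. The members and lists were chosen with earlier results of these data known.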

Additional observations from a re-analysis of the deposited data

How the results depend on the processing

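In the 12 alternatives for each member, the direction of all 6 members held, and Fcgr1, Fcgr2b, Fcgr3, Fcgr4 and Fcgrt passed the test throughout. The sum of Fcgr2b, Fcgr3 and Fcgr4 is left out here, because its shared value cannot show the direction of any of these genes alone. Fcer1g did not pass with library size alone (-0.25), with gene-length offsets (-0.11) or with the replicate block and gene-length offsets (-0.11, adjusted p = 0.475), and passed in the other 9. Leaving out each library gave log2 fold changes of 1.85 to 2.30 for Fcgr1, -2.75 to -2.67 for Fcgr3, -1.30 to -1.22 for Fcgr2b, -1.18 to -1.03 for Fcgr4, -0.68 to -0.58 for Fcer1g and -1.19 to -0.97 for Fcgrt. The replicate numbers were not shown to pair the libraries (correlation of deviations 0.024 across 13186 genes, with 2 pairs). With the replicate block alone, Fcgr1 was at 2.08 and Fcer1g at -0.61, and 4111 genes rose and 3959 fell, against 4101 and 3921 without it; the block alone changed no call of a member. With library size alone 6144 genes rose and 2516 fell, so that 70.9% of calls were higher against 51.1%, and DESeq2 called 3581 higher and 3668 lower. Shares of receptor transcript depended on the length used. Without division by length, the difference in share (miR-204-3p mimic minus control, in percentage points) was 49.0 for Fcgr1, -9.75 for Fcgr2b and -33.9 for Fcgr3, against 45.7, -2.47 and -38.0. With principal transcript length it was 42.7 for Fcgr1, -2.19 for Fcgr2b and -1.90 for Fcgr4, the last against -5.26. The cause of these shifts beyond the length itself was not tested. With 2 libraries a group, the spread rests on little information, and no permutation test of a share could pass 0.05.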

Other observations

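The GAS letters in the Fcgr1 window, TTCCCAGAA, contain TTCCCAGA, the DNA letters of an 8mer match to the miR-204-3p seed, which 3.12% of the 32851 windows held on either strand. The match lies 109 bases before the RefSeq start, outside the annotated transcript, and whether these letters bear on the level of Fcgr1 was not tested.

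Fcgr4, whose window holds the ISRE core, fell 2.14-fold, and Fcgr1, whose window holds the GAS letters and no ISRE core, rose 4.19-fold. Ifngr1 and Ifngr2, encoding the chains of the interferon-γ receptor and named after their values were seen, had log2 fold changes of -0.93 ± 0.15 (adjusted p = 0.000101) and -0.64 ± 0.13 (adjusted p = 0.000865). The call of Ifngr2 was lost with library size alone (-0.27, adjusted p = 0.0848). Whether the letters or these receptor chains bear on the change of Fcgr1 or Fcgr4 was not tested.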
